A study of Mus musculus with 64 samples.

Results

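The 34 genes described here encode scaffold, adhesion and signalling proteins of the postsynapse. They were taken from a list of gene symbols by function, with no threshold on a measured value, although earlier results of these data were known when the list was drawn up. Each symbol was matched to its Ensembl gene ID in the GENCODE annotation of GRCm38. All 34 were found among the 18432 genes of the expression table, and every one was well measured, since the lowest value of any of them in any library was 119.3 normalized counts. By role they comprised 4 MAGUK scaffolds (Dlg1, Dlg2, Dlg3 and Dlg4), 4 SAPAP scaffolds (Dlgap1 to Dlgap4), 5 Shank and Homer scaffolds (Shank1 to Shank3, Homer2 and Homer3), 7 synaptic adhesion molecules (Nlgn1 to Nlgn3 and Lrrtm1 to Lrrtm4), 5 genes of calcium and calmodulin signalling (Camk2a, Camk2b, Camk2g, Camk4 and Nrgn), 7 regulators of small GTPases and actin (Baiap2, Iqsec1, Iqsec2, Kalrn, Sipa1l1, Synpo and Ppp1r9b), and 2 further scaffolds (Cnksr2 and Anks1b).

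RNA was sequenced from the frontal cortex and the hippocampus of heterozygous Cyfip2 Arg87Cys knock-in (KI) mice and of their wild-type (WT) littermates, all of the C57BL/6N strain. Tissue was taken at postnatal week (PWK) 1, 7, 14 and 28, with 4 mice per genotype and age and both regions dissected from each mouse. This gave 16 groups of region, age and genotype with 4 libraries each, or 64 libraries. The KI allele is a constitutive single-codon change that stands as a model of West syndrome. The model rests on 1 engineered allele that every cell carries. RNA came from whole tissue, so a change in 1 cell type cannot be separated from one in another.

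Excitatory synapses of forebrain neurons sit mostly on dendritic spines, whose postsynaptic density is built in layers. MAGUK proteins hold receptors and adhesion molecules near the membrane, SAPAP proteins link them to Shank, and Shank and Homer form a deeper lattice that reaches the actin of the spine. Calcium entering through NMDA receptors binds calmodulin and activates the kinase CaMKII, and Cyfip2 is a subunit of the WAVE complex, through which Rac drives actin branching.

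The deposited values are counts normalized by the authors over all 64 libraries. Stepwise low values put the depth behind each library at 25.3 to 37.7 M reads (median 31.1 M). Cyfip2 itself cannot check the genotype labels, since the allele changes a codon, and its own level differed by genotype in late cortex. At PWK 28 it was 21597 to 30055 normalized counts in KI and 34022 to 35279 in WT cortex (log2 fold change -0.44, SE 0.087, adjusted p = 0.0058), and at PWK 14 it was 28584 to 38683 against 39966 to 44053, without overlap but with an adjusted p of 0.0539. Cyfip2 was not called in the other 6 comparisons of genotypes. The region labels matched their markers, with a summed level of 6 dentate granule neuron genes, given like all summed marker levels in units of 1000 normalized counts, of 12.9 to 18.6 in WT hippocampus and 2.86 to 3.66 in WT cortex at PWK 7 to 28. No marker of any of the 13 cell type lists was at 0 in all libraries of a group. Some libraries stood apart: KI hippocampus replicate 1 at PWK 14 had a summed level of 7 astrocyte genes of 197 against 77.0 to 88.4 in the other KI libraries of that group, and WT cortex replicate 2 at PWK 28 held 21.6 of choroid plexus transcripts against at most 0.868 in the other WT libraries. Choroid plexus transcripts varied far more among hippocampal libraries of one group, from 1.91 to 99.3 in KI and 2.08 to 105 in WT mice at PWK 14, and from 1.47 to 97.7 in WT mice at PWK 7, and their part in the results was not tested. The counts of genotype calls in these 2 groups are given with and without them. In whole tissue, fewer cells of a type and less RNA per cell cannot be told apart.

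In adult WT mice these genes spanned a wide range of levels. Per kilobase of the longest annotated transcript, Camk2a, the alpha subunit of CaMKII, was the highest in WT cortex at PWK 7 with 25660 ± 1210 normalized counts per kilobase (SD, n = 4), followed by Nrgn, which encodes the calmodulin-binding protein neurogranin, with 21150 ± 1210. That gap was well above either SD. The spine protein gene Ppp1r9b (spinophilin) came next with 6109 ± 216, and it lay close to its neighbour Camk2b with 5783 ± 152. At the other end stood Nlgn1 with 222 ± 12.3, Lrrtm4 with 193 ± 15.2 and Homer3 with 57.9 ± 7.23, of which Nlgn1 and Lrrtm4 lay within about their summed SDs. In WT hippocampus Camk2a was again first with 26100 ± 2470 per kilobase and Lrrtm3 was last with 124 ± 22.8.

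The first comparison asked how these genes change over postnatal maturation in WT mice. Between PWK 1 and PWK 7 in cortex 18 of the 34 genes were called higher and 14 lower at an adjusted p under 0.05, against 32.5% and 32.7% of all genes tested. The median log2 fold change of the 34 was 0.21, beside 0.012 for all genes. In hippocampus 20 were called higher and 9 lower, against 30.9% and 30.4% of all genes, with a median of 0.27 beside 0.013. All 7 regulators of small GTPases and actin rose in both regions, whereas 6 of the 7 adhesion molecules in cortex and 5 of the 7 in hippocampus fell. The genes not called were Dlg4 and Shank3 in cortex, and Dlgap3, Shank1, Shank2, Shank3 and Nrgn in hippocampus. Centring each library on 10 pan-neuronal genes turned the direction of Dlg3, Homer2 and Lrrtm4 in cortex and of Nlgn1, Nlgn2 and Lrrtm2 in hippocampus.

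The largest rises in cortex were those of Camk2a (log2 fold change 1.68, SE 0.084, adjusted p = 7.75e-09), of Dlgap1, which encodes SAPAP1 (log2 fold change 1.56, SE 0.049, adjusted p = 2.3e-10), and of Kalrn, an exchange factor for Rac (log2 fold change 1.48, SE 0.059, adjusted p = 1.15e-09). Camk2a went from 37531, 35918, 48432 and 38605 normalized counts in the 4 WT libraries at PWK 1 to 129138, 118894, 132762 and 129375 at PWK 7, so that every library at PWK 7 exceeded every one at PWK 1. The largest falls were those of Lrrtm1, an adhesion partner of presynaptic neurexins (log2 fold change -0.99, SE 0.065, adjusted p = 7.02e-08), of Dlg2, which encodes PSD-93 (log2 fold change -0.82, SE 0.050, adjusted p = 3.57e-08), and of Nlgn3, a neuroligin (log2 fold change -0.72, SE 0.048, adjusted p = 7.85e-08). Nlgn3 shares exon sequence on the same strand with the annotated gene Gm21986, so reads may have been split between them.

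In hippocampus the largest rises were those of Homer3 (log2 fold change 1.32, SE 0.12, adjusted p = 1.65e-06), Dlgap1 (log2 fold change 1.30, SE 0.045, adjusted p = 1.59e-09) and Kalrn (log2 fold change 1.27, SE 0.049, adjusted p = 3.02e-09). The largest falls were those of Camk4, a nuclear calcium-dependent kinase that acts on CREB (log2 fold change -1.28, SE 0.081, adjusted p = 1.22e-07), of Lrrtm3 (log2 fold change -0.51, SE 0.15, adjusted p = 0.0111) and of the SAPAP gene Dlgap4 (log2 fold change -0.45, SE 0.038, adjusted p = 1.32e-06). There were 22 genes called in the same direction in both regions and 6 called in opposite directions. The latter were Dlg3, Homer3, Lrrtm1, Lrrtm4 and Camk2b, which fell in cortex and rose in hippocampus, and Lrrtm3, which rose in cortex and fell in hippocampus. For Camk2b the log2 fold changes were -0.52 (SE 0.043) in cortex and 0.60 (SE 0.066) in hippocampus. The interaction of age with region was not itself tested. Shares of all genes called in both regions, alike or in opposite directions, are not given here.

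**Figure D1:**
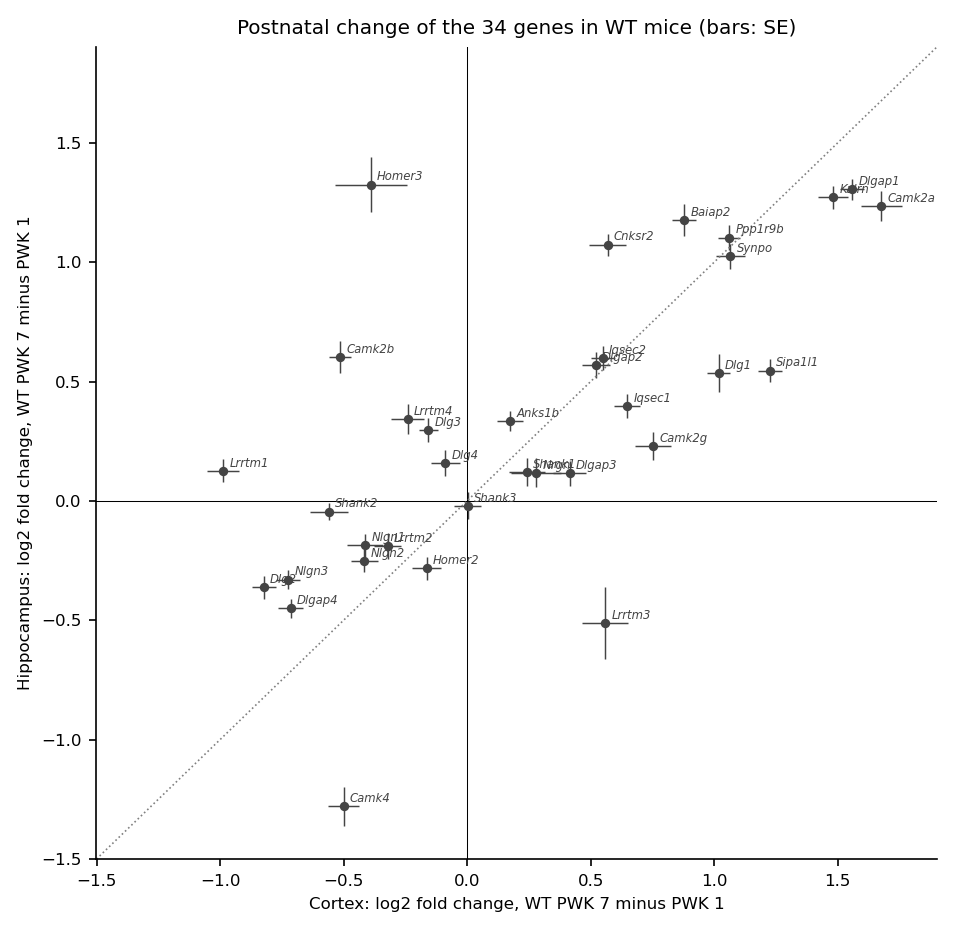
Change of the 34 genes between PWK 1 and PWK 7 in WT mice, as the log2 fold change in cortex (horizontal axis) against that in hippocampus (vertical axis), with SE bars and a dotted line of equal change. Camk2a, Dlgap1 and Kalrn sit at the upper right, and Homer3, Camk2b and Lrrtm3 lie far from the line.

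Between PWK 7 and PWK 28 the genes moved mostly down in WT mice. In cortex 4 were called higher and 12 lower, against 10.9% and 11.4% of all genes, and the median was -0.078 beside -0.006 for all genes. In hippocampus 0 were called higher and 21 lower, against 6.35% and 8.38%, with a median of -0.21 beside -0.006. The 21 fell to 12 without WT replicate 4 at PWK 28 and to 13 without WT replicate 1 at PWK 28, and centring on pan-neuronal genes cut them to 9. There were 10 genes called lower in both regions: Shank3, Nlgn1, Nlgn3, Camk2a, Camk4, Nrgn, Iqsec2, Kalrn, Ppp1r9b and Cnksr2. The share of all genes called lower in both is not given here. Dlg4 and Nlgn2 were called lower in cortex alone, and Dlg2, Dlg3, Dlgap1, Dlgap2, Dlgap3, Homer2, Lrrtm1, Camk2b, Camk2g, Iqsec1 and Sipa1l1 in hippocampus alone, with no test of the difference between regions. Dlg1 was the fourth gene called higher in cortex. The largest falls in cortex were those of Nrgn (log2 fold change -0.42, SE 0.046, adjusted p = 9.17e-05), Cnksr2 (log2 fold change -0.40, SE 0.044, adjusted p = 0.000107) and Kalrn (log2 fold change -0.39, SE 0.043, adjusted p = 0.000102), and the largest rises those of Baiap2, the actin-bundling adaptor IRSp53 (log2 fold change 0.33, SE 0.039, adjusted p = 0.000174), Lrrtm2 (log2 fold change 0.33, SE 0.071, adjusted p = 0.00697) and Synpo (log2 fold change 0.29, SE 0.039, adjusted p = 0.000372). In hippocampus the largest falls were those of Camk4 (log2 fold change -0.54, SE 0.079, adjusted p = 0.00203), Nrgn (log2 fold change -0.51, SE 0.044, adjusted p = 0.000134) and Dlgap2 (log2 fold change -0.37, SE 0.062, adjusted p = 0.00364).

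A further WT comparison set hippocampus against cortex at each age. Both regions were dissected from each mouse, but no label says that a replicate number marks a mouse, so the libraries were fitted without pairing. At PWK 1, 7 genes were called higher in hippocampus and 16 lower, against 16.1% and 18.6% of all genes. At PWK 7 the counts were 10 and 17 against 20.4% and 20.4%, at PWK 14 they were 8 and 14 against 17.0% and 17.6%, and at PWK 28 they were 7 and 18 against 18.8% and 19.0%. The median log2 difference of the 34 genes lay between -0.15 and -0.13 at the 4 ages, beside medians of all genes between -0.002 and 0.011. Centring on pan-neuronal genes turned the direction of several small differences, while Homer3, Lrrtm1, Lrrtm3 and Dlg1 kept theirs at all 4 ages.

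Homer3, a short-range adaptor between Shank and metabotropic glutamate receptors, differed most between the regions. Its 4 WT libraries at PWK 7 were at 147, 157, 127 and 172 normalized counts in cortex and at 1599.9, 1692, 1119.8 and 1577 in hippocampus, a 9.8-fold difference (log2 difference 3.29, SE 0.13, adjusted p = 9.08e-09). The difference was already present at PWK 1 (log2 difference 1.58, SE 0.12, adjusted p = 2.44e-06) and was still seen at PWK 28 (log2 difference 2.92, SE 0.12, adjusted p = 6.06e-09). Lrrtm1 was also higher in hippocampus, by 1.33 on the log2 scale at PWK 7 (SE 0.059, adjusted p = 1.84e-08), and Camk2b by 0.99 (SE 0.066, adjusted p = 3.73e-07). Both rose in hippocampus and fell in cortex over the first weeks, as given above.

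The genes highest in cortex relative to hippocampus at PWK 7 were Lrrtm3 (log2 difference -1.59, SE 0.14, adjusted p = 3.12e-06), Dlg1, which encodes SAP97 (log2 difference -0.87, SE 0.075, adjusted p = 3.05e-06), and Camk4 (log2 difference -0.75, SE 0.077, adjusted p = 1.32e-05). At PWK 1 the largest differences toward hippocampus were those of Homer3, Camk2a (log2 difference 0.46) and Dlgap1 (0.38), and those toward cortex were Dlg2 (-0.72), Shank2 (-0.67) and Lrrtm3 (-0.52). At PWK 14 and 28 the order at the top was Homer3, Lrrtm1 (1.15 and 1.07) and Camk2b (0.91 and 0.72). Toward cortex it was Lrrtm3 (-1.45), Dlg1 (-0.90) and Camk2g (-0.81) at PWK 14, and Lrrtm3 (-1.43), Camk4 (-1.03) and Dlg1 (-0.88) at PWK 28. There were 9 genes called higher in cortex at all 4 ages (Dlg1, Dlg2, Dlgap2, Dlgap3, Dlgap4, Shank2, Lrrtm2, Lrrtm3 and Synpo) and 3 called higher in hippocampus at all 4 (Homer3, Lrrtm1 and Anks1b). Adjusted p-values for the values in this paragraph ranged up to 0.00287.

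The main question was whether the genes differ between Cyfip2 KI and WT mice, and at which age. At PWK 1 and PWK 7 none of the 34 was called in cortex or hippocampus. Of all genes, 0.00546% were called in cortex and 0.0109% in hippocampus at PWK 1, and 0.00545% and 0.0218% at PWK 7. At an unadjusted p under 0.05 from limma, 2 of the genes passed in cortex and 3 in hippocampus at PWK 1, and 5 and 6 at PWK 7, beside 965, 1003, 1477 and 1144 of all genes. The smallest adjusted p among the 34 was 0.908 and 0.808 at PWK 1 and 0.384 and 0.625 at PWK 7, and all log2 fold changes lay between -0.24 and 0.22. Values above 0 numbered 29 of the 34 in cortex and 19 in hippocampus at PWK 1, and 24 and 4 at PWK 7. The medians were 0.048, 0.004, 0.037 and -0.067 in that order, beside 0.002, 0.002, 0.005 and -0.002 for all genes. A lean of the 34 to 1 side thus also occurred where none was called. The gene with the smallest p at PWK 1 was Lrrtm4 in cortex (log2 fold change 0.22, SE 0.065, adjusted p = 0.908) and Camk4 in hippocampus (log2 fold change -0.24, SE 0.066, adjusted p = 0.808), and at PWK 7 Camk4 in cortex (log2 fold change -0.21, SE 0.062, adjusted p = 0.384) and Kalrn in hippocampus (log2 fold change -0.18, SE 0.052, adjusted p = 0.625). With a median SE of 0.0516 to 0.0636 log2 units per gene, small differences were not detectable with 4 mice a group.

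At PWK 14 and PWK 28 each of the 4 comparisons of genotypes had calls among the 34 genes. The count of each comparison is read below against the share of all genes called in it. Of the 34 genes, 17 were called in at least 1 of the 4 late comparisons, 14 of them lower wherever called, 2 higher (Nlgn1 and Iqsec1) and 1 in both directions (Dlgap3). The share of all genes called in at least 1 of the 4 is not given here. These counts therefore cannot be read as particular to the 34. Homer2 was lower in all 4 late comparisons, and Shank1 and Sipa1l1 in 3 of the 4. The heat map of genotype differences shows the calls by role, region and age.

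**Figure D2:**
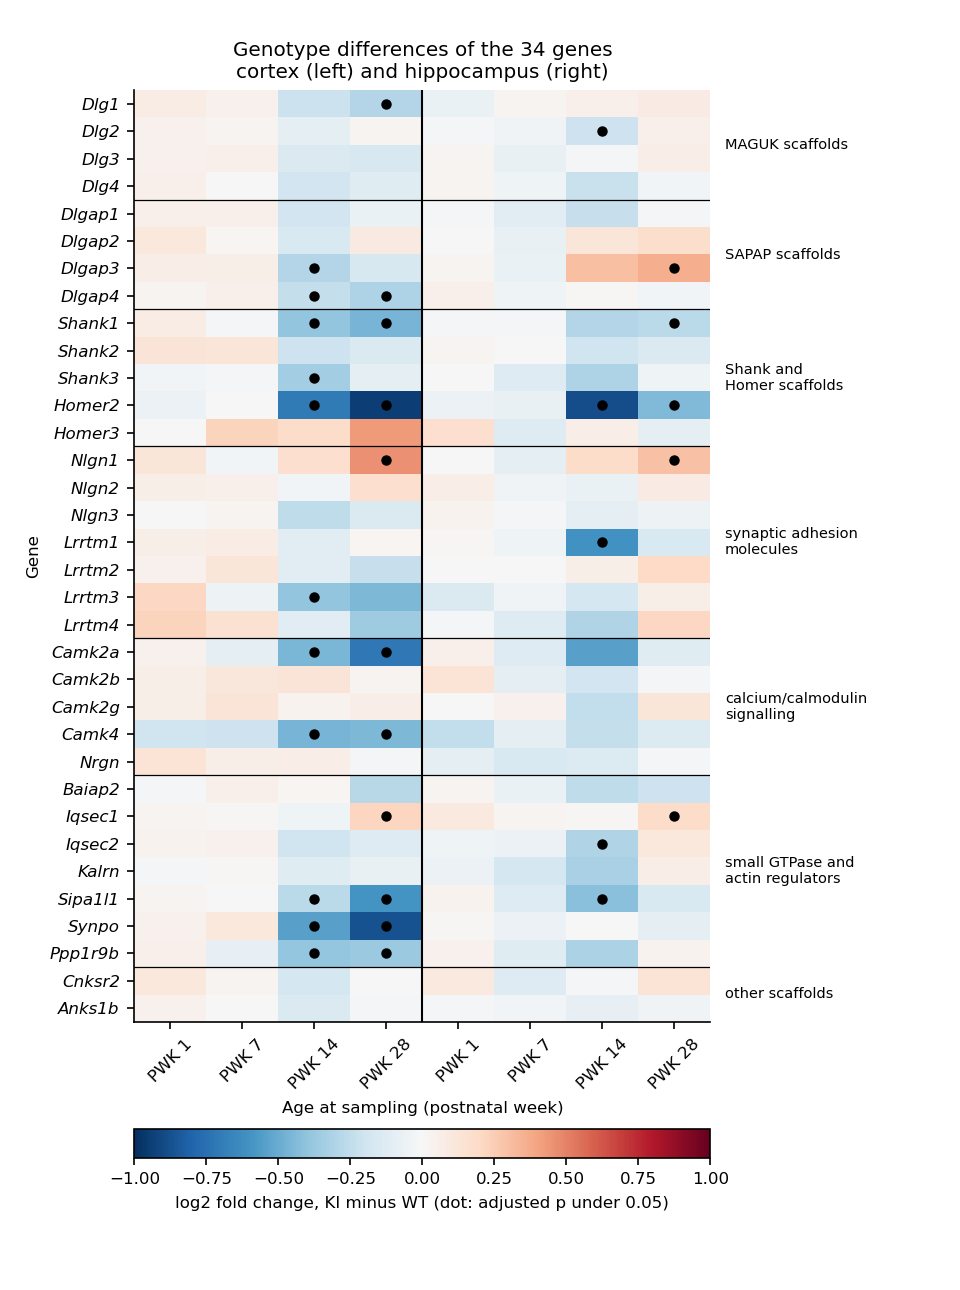
Log2 fold change of KI against WT for each of the 34 genes (rows, grouped by role) in cortex and hippocampus at PWK 1, 7, 14 and 28 (columns), with a dot where the adjusted p was under 0.05. No dot appears at PWK 1 or 7, and the cortex columns hold 11 dots at PWK 14 and 11 at PWK 28, against 5 and 5 in hippocampus.

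Promoter sequences are shown for 5 genes whose genotype differences were unlike each other: Homer2 (lower in all 4 late comparisons), Shank3 (lower in cortex at PWK 14), Dlgap3 (opposite in the regions), Lrrtm1 (lower in hippocampus at PWK 14) and Iqsec1 (higher in both regions at PWK 28). RefSeq start sites of GRCm38.p6 were available here for 25 of the 34 genes, with 45 windows of 250 bases before to 50 after a start. The 250 bases before the first listed start are printed 5′ to 3′ on the strand of the gene, with matches to the GC box (GGGCGG), the E-box (CAGATG), the TATA motif (TATAAA) and the cyclic AMP response element (TGACGTCA) on either strand in capitals, overlapping matches merged.
Homer2 (chr7:81706926-81707175, minus strand): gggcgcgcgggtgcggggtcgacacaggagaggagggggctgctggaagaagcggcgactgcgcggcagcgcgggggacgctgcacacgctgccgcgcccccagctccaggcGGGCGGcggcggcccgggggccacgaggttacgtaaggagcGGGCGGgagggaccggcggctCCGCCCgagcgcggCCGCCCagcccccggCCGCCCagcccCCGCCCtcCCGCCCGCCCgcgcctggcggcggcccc
Shank3 (chr15:89499358-89499607, plus strand): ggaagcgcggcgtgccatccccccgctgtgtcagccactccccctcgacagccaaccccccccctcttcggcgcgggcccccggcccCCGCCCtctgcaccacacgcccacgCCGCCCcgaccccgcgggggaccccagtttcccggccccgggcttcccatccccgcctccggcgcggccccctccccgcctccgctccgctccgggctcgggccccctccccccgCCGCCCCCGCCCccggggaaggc
Dlgap3 (chr4:127172630-127172879, plus strand): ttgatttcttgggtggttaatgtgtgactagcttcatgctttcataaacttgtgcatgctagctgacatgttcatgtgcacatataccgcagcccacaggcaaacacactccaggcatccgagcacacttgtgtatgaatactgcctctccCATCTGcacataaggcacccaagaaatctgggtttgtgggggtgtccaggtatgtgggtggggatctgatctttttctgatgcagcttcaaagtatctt
Lrrtm1 (chr6:77242227-77242476, plus strand): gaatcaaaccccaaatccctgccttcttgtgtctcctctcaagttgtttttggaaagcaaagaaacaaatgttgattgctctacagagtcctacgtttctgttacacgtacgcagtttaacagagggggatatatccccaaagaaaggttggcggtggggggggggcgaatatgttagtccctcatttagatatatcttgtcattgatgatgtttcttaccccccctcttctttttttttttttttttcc
Iqsec1 (chr6:90810124-90810373, minus strand): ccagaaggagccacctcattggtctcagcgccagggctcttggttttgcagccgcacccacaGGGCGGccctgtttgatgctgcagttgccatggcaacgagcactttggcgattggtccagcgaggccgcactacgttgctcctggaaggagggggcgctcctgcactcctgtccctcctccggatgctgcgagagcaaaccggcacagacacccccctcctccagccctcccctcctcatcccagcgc

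The Homer2 window held 8 GC box matches and 83.2% G and C, the Shank3 window 4 and 82.4%, and the Iqsec1 window 1 and 64.8%. The Dlgap3 window held 1 E-box match and 46.8% G and C, and that of Lrrtm1 no match and 42.0%. The windows of Homer2, Dlgap3 and Iqsec1 lie within the annotated gene, whose 5′ end is at 81707527, 127169204 and 90988685 in turn. They thus precede starts inside the gene and not its outermost start. Over the full windows, the GC box was found in 46.7% of the 45 windows of the 25 genes and in 35.7% of all 32851 promoters. The TATA motif was found in 13.3% against 13.6%, the E-box in 8.89% against 17.2%, and the cyclic AMP response element in 0 windows against 1.79%. These are matches of letters and show nothing about binding.

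In cortex at PWK 14, 11 genes were called lower and 0 higher, against 2.70% and 2.48% of all genes tested. The median log2 fold change of the 34 was -0.18, beside -0.002 for all genes, and 28 of the 34 values lay below 0. The genes called were 3 of the 5 Shank and Homer scaffolds, 2 of the 4 SAPAP genes, 2 of the 5 calcium and calmodulin genes, 3 of the 7 GTPase and actin regulators and 1 of the 7 adhesion molecules. The count rested on single libraries: without KI replicate 2 it was 3, without WT replicate 1 or 3 it was 5, and without WT replicate 2 or 4 it was 7. Homer2, Shank3 and Camk4 were called without any one library.

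Homer2 (ENSMUSG00000025813, chromosome 7, 81600481 to 81707527, minus strand), which links Shank to metabotropic glutamate receptors, fell most. The WT cortices at PWK 14 held 3176, 3584, 3412 and 3404 normalized counts and the KI cortices 1696, 1892, 2403 and 2421, so that the highest KI library stayed well below the lowest WT library (log2 fold change -0.71, SE 0.11, adjusted p = 0.00622). Synpo, which encodes synaptopodin of the spine apparatus, was at 8855, 8776, 7766 and 7980.2 in WT and 4502, 5145, 6988 and 6645 in KI libraries. The groups did not overlap, but the KI libraries were spread over a wide range (log2 fold change -0.54, SE 0.12, adjusted p = 0.0329). Camk4 was at 1478, 1757, 1561 and 1330.5 in WT and 1081, 1193, 1136 and 1017 in KI libraries, again without overlap (log2 fold change -0.46, SE 0.087, adjusted p = 0.0149).

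Shank1 (ENSMUSG00000038738, chromosome 7, 44310253 to 44360572, plus strand) encodes a scaffold of the deep postsynaptic density. At PWK 14 it was at 22999, 24132, 25387 and 27394 in WT cortex and 19184, 17372, 21135 and 18356 in KI cortex, and every KI library was below every WT library (log2 fold change -0.39, SE 0.075, adjusted p = 0.0158). Sipa1l1 (ENSMUSG00000042700, chromosome 12, 82169320 to 82451786, plus strand), a Rap GTPase-activating protein of spines, was at 17009.8, 16627, 17117 and 17817 and 12988, 14753, 15397 and 13958, with the same separation (log2 fold change -0.27, SE 0.061, adjusted p = 0.0327). The remaining genes called were Dlgap3 with a log2 fold change of -0.29 (SE 0.062), Dlgap4 with -0.24 (SE 0.058), Lrrtm3 with -0.39 (SE 0.095) and the spinophilin gene Ppp1r9b with -0.39 (SE 0.075). Dlgap4 lost the call with total-sum scaling and with a correction for GC content and length, and kept it in 1 of the 8 fits that leave out a library. Lrrtm3 lost it without the filter on low values, with total-sum scaling and in the fit of all 64 libraries, and kept it in 2 of those 8 fits.

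In cortex at PWK 28, 9 genes were called lower and 2 higher, against 10% and 12.2% of all genes. The 34 had a median of -0.14, beside -0.003 for all genes. Of the genes called lower, 8 were those called lower at PWK 14 as well (Dlgap4, Shank1, Homer2, Camk2a, Camk4, Sipa1l1, Synpo and Ppp1r9b), and Dlg1 joined them. The 3 genes called at PWK 14 but not at PWK 28 were Dlgap3, Shank3 and Lrrtm3. The share of all genes called lower in cortex at both ages is not given here. Without WT replicate 2, the library with choroid plexus transcripts, 11 genes were again called, 9 lower and 2 higher, and without KI replicate 2 the count was 18.

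Homer2 was again the gene that fell most. At PWK 28 the WT cortices held 3072, 2969, 3371 and 3477 and the KI cortices 1493, 1986, 1732 and 1532, with every KI library far below every WT library (log2 fold change -0.94, SE 0.094, adjusted p = 0.000241). Synpo was at 7785, 8017, 8155 and 8082 in WT and 3954, 5284, 4801 and 3680.1 in KI cortex, with tightly grouped WT libraries far above all KI libraries (log2 fold change -0.87, SE 0.10, adjusted p = 0.000482). Sipa1l1 was at 17154, 16732, 17063 and 17594 and 9005, 14119.7, 10778 and 12066, without overlap but with KI replicate 2 nearest to WT (log2 fold change -0.59, SE 0.11, adjusted p = 0.00442). Shank1 was at 22281, 21755, 19606 and 21974 and 14591, 16806, 14569 and 15989, all KI below all WT libraries (log2 fold change -0.47, SE 0.065, adjusted p = 0.000972).

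Ppp1r9b, which anchors protein phosphatase 1 in spines, was at 25516, 23868, 22587 and 22795 in WT and 17199, 20158, 17736 and 18271 in KI cortex, and the groups did not overlap (log2 fold change -0.37, SE 0.064, adjusted p = 0.0029). Dlg1 was at 6559, 6075, 6661 and 6376 and 5532, 5368, 4957 and 5147, also without overlap (log2 fold change -0.29, SE 0.054, adjusted p = 0.00451). The other genes called lower were Dlgap4 with a log2 fold change of -0.30 (SE 0.078) and Camk4 with -0.45 (SE 0.056).

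The 2 genes that rose in cortex at PWK 28 were Nlgn1 and Iqsec1. Nlgn1 (ENSMUSG00000063887, chromosome 3, 25426215 to 26332460, minus strand), the neuroligin of excitatory synapses, was at 2326, 2245, 2296 and 2434 in WT and 3219.8, 2847, 3332 and 3412 in KI libraries, all KI above all WT (log2 fold change 0.46, SE 0.066, adjusted p = 0.00116). Iqsec1, an exchange factor for the small GTPase Arf6, was at 8614, 9011, 8473 and 8317 and 10483, 9449, 9298 and 10765 (log2 fold change 0.21, SE 0.060, adjusted p = 0.0287). Its rise was small, and centring on pan-neuronal genes brought it to -0.008. Annotated genes overlap Nlgn1 (A830092H15Rik), Shank1 (1700008O03Rik) and Shank3 (Gm15609) on the opposite strand. The kit was stranded, but whether counting used the strand is not given in the sources used here, so reads of these pairs may not be told apart.

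Cell type markers moved in the same cortical libraries. The summed level of 10 pan-neuronal genes was 233 to 252 in KI and 236 to 249 in WT cortex at PWK 14, with overlap and 0 called. At PWK 28 the summed level was 241 to 253 against 213 to 231, with 3 genes called higher and 0 lower. For 5 excitatory neuron genes it was 57.3 to 84.1 against 52.4 to 57.3 at PWK 14 and 64 to 86.2 against 41.5 to 47.7 at PWK 28, with 2 genes called higher and 1 lower at the later age. For 7 interneuron genes it was 24.1 to 32.1 against 19.3 to 20.9 and 30.6 to 45.5 against 22.1 to 28.4, with 4 genes called higher and 1 lower at each age. For 4 upper-layer genes it was 8.51 to 12.9 against 12.7 to 14.5 at PWK 28, with 1 called higher and 2 lower. At PWK 14, 5 deep-layer genes summed to 8.8 to 10.3 in KI and 10.8 to 11.4 in WT cortex, with 1 called lower, and 4 endothelial genes to 2.41 to 2.88 against 3.6 to 3.83, with 2 called lower. The part of these shifts in the results was not tested. With libraries centred on the pan-neuronal genes, 19 of the 34 genes were called in cortex at PWK 14 and 26 at PWK 28. The share of all genes called under that centring is not given here, so these counts cannot be read as particular to the 34. The pan-neuronal genes were themselves higher in KI cortex at PWK 28, so centring on them lowers the KI values of other genes there.

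In hippocampus at PWK 14, 5 genes were called lower and 0 higher, against 7.95% and 7.64% of all genes. The median was -0.20, beside 0.006 for all genes, and the median SE of 0.109 was the largest of the 8 genotype comparisons. Without KI replicate 1, the library with the highest astrocyte markers, 7 genes were called, and without KI replicate 3 or WT replicate 1, 2 or 4 the count was 3. Homer2, Lrrtm1 and Sipa1l1 were called without any one library.

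Homer2 in hippocampus was at 3741, 3797, 4049.9 and 4252 in WT and 1445, 2472, 2278 and 2573 in KI libraries, and KI replicate 1 was the lowest (log2 fold change -0.89, SE 0.16, adjusted p = 0.00754). Lrrtm1 (ENSMUSG00000060780, chromosome 6, 77242689 to 77257791, plus strand) was at 2735, 2701, 2490.3 and 2884 in WT and 1724, 2105, 1654 and 1634 in KI libraries, all KI below all WT (log2 fold change -0.61, SE 0.088, adjusted p = 0.00282). Sipa1l1 was at 12949, 12302, 12521 and 14542 and 9131, 10281, 10004 and 9699, also apart (log2 fold change -0.42, SE 0.070, adjusted p = 0.00503). Dlg2, with a log2 fold change of -0.21 (SE 0.059), and Iqsec2, an Arf exchange factor bound to PSD-95, with -0.30 (SE 0.080), were the other genes called lower. Shank1 had the same sign but missed the threshold, with WT libraries at 21546, 19716, 19721 and 26249 and overlapping KI libraries at 14404, 19969, 20520.0 and 16478 (log2 fold change -0.29, SE 0.13, adjusted p = 0.162).

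In hippocampus at PWK 28 the calls went both ways, with 3 genes higher and 2 lower, against 8.92% and 6.91% of all genes, and a median of -0.015 beside 0.004. The share of the 34 genes called was thus near that of all genes with the deposited scaling. Centring on pan-neuronal genes gave 14 calls, but the share of all genes called under that centring is not given here. Of the 10 pan-neuronal genes themselves, 3 were called higher and 0 lower in this comparison. Without KI replicate 2 the count was 8. Homer2 was at 3350.4, 3563, 3005 and 3427 in WT and 2253, 2482, 2869.5 and 2276 in KI hippocampus, with no overlap but a smaller gap than at PWK 14 (log2 fold change -0.44, SE 0.080, adjusted p = 0.00429). Shank1 was at 18221, 18027, 17987 and 18616 and 13782, 15129, 16070.0 and 15594, with a narrow WT group above all KI libraries (log2 fold change -0.27, SE 0.049, adjusted p = 0.00416). Sipa1l1 was at 11337, 11636, 10758 and 11205 and 8333, 11149, 10348 and 10889, and the groups overlapped (log2 fold change -0.15, SE 0.080, adjusted p = 0.23).

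Dlgap3 (ENSMUSG00000042388, chromosome 4, 127169204 to 127237022, plus strand), which encodes SAPAP3, rose in hippocampus at PWK 28. It was at 4931, 5564, 5512 and 5162 in WT and 6384, 6979.7, 7070.5 and 6782 in KI libraries, all KI above all WT (log2 fold change 0.36, SE 0.052, adjusted p = 0.00112). Nlgn1 was at 2566, 2456, 2408 and 2323 and 2812, 3199.6, 3009 and 2919, likewise apart (log2 fold change 0.29, SE 0.053, adjusted p = 0.004). Iqsec1 was at 6122, 6872, 6816 and 6824 and 7689, 7019, 7533 and 8009, a small difference that was called in only 1 of the 8 fits that leave out a library (log2 fold change 0.18, SE 0.053, adjusted p = 0.0388).

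Hippocampal markers also differed between the genotypes. The summed level of 7 astrocyte genes was 77.0 to 197 in KI and 44.4 to 48.8 in WT libraries at PWK 14, with 3 genes called higher, and 75.2 to 87.4 against 45.8 to 47.6 at PWK 28, again with 3 called higher. At PWK 14, 7 microglial genes summed to 10 to 28.2 in KI and 9.3 to 11.3 in WT libraries with 0 called, the highest being KI replicate 1. At that age 4 genes listed for upper layers of cortex summed to 3.69 to 5.77 against 6.09 to 6.61, with 1 called lower. The 5 genes listed for deep layers of cortex summed to 7.75 to 9.51 against 9.59 to 10.5, with 2 called lower. Neither of these lists names a hippocampal cell type. For the 7 microglial genes the summed level was 12.9 to 15.0 against 10.6 to 11.5 at PWK 28, with 5 called higher. For 6 CA1 pyramidal neuron genes it was 15.8 to 17.2 against 19.7 to 21.2 at PWK 14, with 3 called lower. At PWK 28 it was 14.7 to 18.8 against 17.6 to 19.2, with 1 called higher and 1 lower. The 6 dentate granule neuron genes summed to 9.98 to 14.9 against 13.5 to 18.6 at PWK 14, with 2 called lower. At PWK 28 they summed to 10.9 to 13.3 against 12.9 to 13.8, with 1 called higher and 2 lower. For 10 pan-neuronal genes it was 185 to 208 against 190 to 199 at PWK 14 and 187 to 201 against 178 to 188 at PWK 28. The mean summed level of 5 excitatory neuron genes was 65.7 in KI and 51.2 in WT libraries at PWK 14, with overlap. Of these genes, 1 was called higher and 2 lower. At PWK 28 the mean was 52.6 against 42.8 without overlap, with 1 called higher and 1 lower. For 7 interneuron genes the mean was 23.5 against 20.2 at PWK 14, with overlap and 1 called higher. At PWK 28 it was 23.9 against 19.2 without overlap, with 3 called higher and 0 lower. The part of these shifts in the results was not tested.

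**Figure D3:**
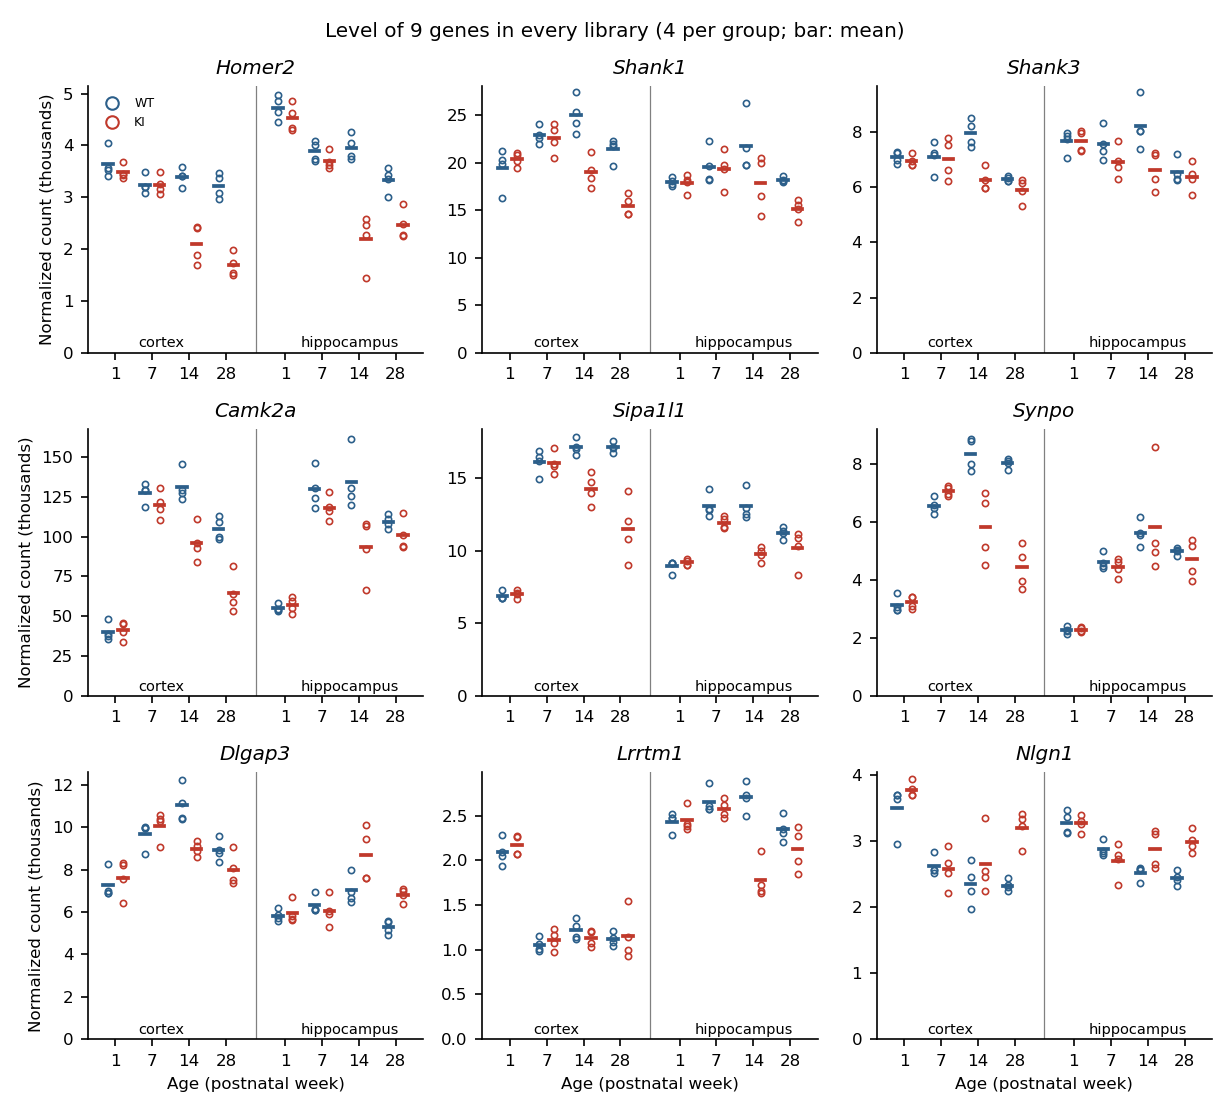
Normalized counts (vertical axes, in units of 1000) of 9 genes in every library, by region and age, with WT in blue and KI in red and a bar at each group mean. Homer2, Shank1, Camk2a, Sipa1l1 and Synpo separate by genotype in cortex at PWK 14 and 28, Lrrtm1 only shows a gap in hippocampus at PWK 14, and Dlgap3 is lower in KI cortex but higher in KI hippocampus at PWK 14 and 28 on average.

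Of the genes shown whatever their result, Camk2a fell in cortex at both late ages. WT cortices at PWK 14 were at 127199.6, 123566, 129402 and 145322 and KI cortices at 84083, 92739, 111014 and 95844, and no KI library reached the WT range (log2 fold change -0.46, SE 0.094, adjusted p = 0.0213). At PWK 28 WT cortices were at 113078, 108911, 98251 and 99994 and KI cortices at 53386, 81794, 59199.7 and 64184, again apart (log2 fold change -0.72, SE 0.12, adjusted p = 0.00203). In hippocampus at PWK 14 WT libraries were at 130459, 125440.3, 119818 and 161081 and KI libraries at 66275, 106911, 107949 and 92058, and the groups did not overlap although the adjusted p missed the threshold (log2 fold change -0.54, SE 0.17, adjusted p = 0.0602). At PWK 28 they were at 105072, 114019, 111081 and 107702 and 94289.6, 100978, 114727 and 93755, with overlap (log2 fold change -0.12, SE 0.065, adjusted p = 0.233).

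Shank3, a scaffold at the centre of the density, fell in cortex at PWK 14, where WT libraries were at 7657, 7451, 8221 and 8519 and KI libraries at 6794, 6283, 5986 and 5982 without overlap (log2 fold change -0.35, SE 0.063, adjusted p = 0.0131). In hippocampus at that age the values were 8052, 8030.2, 7387 and 9471 in WT and 5844, 7259, 7158 and 6318 in KI libraries, also without overlap, and the adjusted p just missed the threshold (log2 fold change -0.31, SE 0.095, adjusted p = 0.0543). At PWK 28 the genotypes overlapped in both regions, with cortex at 6352, 6405, 6232 and 6220.0 in WT and 6151, 6268, 5332 and 5867 in KI libraries (log2 fold change -0.097, SE 0.058, adjusted p = 0.264). Hippocampus at PWK 28 was at 6307, 7194, 6489.9 and 6266 and 5728, 6467, 6965 and 6289 (log2 fold change -0.046, SE 0.064, adjusted p = 0.68).

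Dlg4, which encodes PSD-95, was not called in any comparison of genotypes. In cortex WT and KI libraries were at 21808, 22281, 22535 and 24217 and at 21047, 19226, 21040.0 and 18129 at PWK 14 (log2 fold change -0.20, SE 0.065, adjusted p = 0.113), and at 21283, 20665, 20273 and 20623 and at 19078, 19928, 18695 and 18308 at PWK 28 (log2 fold change -0.12, SE 0.048, adjusted p = 0.0869). The cortical groups did not overlap at either age, but the gaps between them were narrow. In hippocampus they were at 20921, 21255, 19475 and 24430.4 and at 16889, 19563, 19499 and 17875 at PWK 14 (log2 fold change -0.22, SE 0.085, adjusted p = 0.111), and at 18461, 19316, 18325 and 18067 and at 17513, 19485, 18484 and 17197 at PWK 28 (log2 fold change -0.031, SE 0.047, adjusted p = 0.714).

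Nrgn showed the least difference of these 4 genes. Cortical WT and KI libraries were at 30737, 31509, 29052 and 33702 and at 36429, 29773, 33965 and 30792 at PWK 14 (log2 fold change 0.065, SE 0.076, adjusted p = 0.697), and at 22437, 23966, 22221 and 22975 and at 22363, 25301, 20871 and 22422 at PWK 28 (log2 fold change -0.013, SE 0.063, adjusted p = 0.906). Hippocampal libraries were at 21011, 20130.4, 18799 and 24253 and at 12865, 23515, 24625 and 17817 at PWK 14, where the KI libraries spread widely (log2 fold change -0.14, SE 0.19, adjusted p = 0.668), and at 14932, 16774, 15390.2 and 16002 and at 14809, 15739.6, 17389 and 14724 at PWK 28 (log2 fold change -0.012, SE 0.059, adjusted p = 0.919). The groups overlapped in all 4 late comparisons.

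The other genes that were not called in any of the 4 late comparisons were Dlg3, Dlgap1, Dlgap2, Shank2, Homer3, Nlgn2, Nlgn3, Lrrtm2, Lrrtm4, Camk2b, Camk2g, Baiap2, Kalrn, Cnksr2 and Anks1b. Together with Dlg4 and Nrgn they made 17. Both further scaffolds, Cnksr2, which tethers Ras signalling, and Anks1b, which binds PSD-95, were among them.

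The next comparison asked whether the genotype difference depended on the region, with an interaction term in the 16 libraries of an age. At PWK 14, 1 gene was called with a higher value in hippocampus and 1 with a lower value, against 1.64% and 1.20% of all genes. At PWK 28, 6 were called higher in hippocampus and 0 lower, against 2.39% and 2.18%. The medians of the 34 interactions were 0.011 at PWK 14 and 0.11 at PWK 28, beside 0.001 and 0.002 for all genes. The count at PWK 14 was 0 without WT hippocampus replicate 1 and 1 in 10 of the other fits that leave out a library, and at PWK 28 the count was 4 without WT hippocampus replicate 1 and 10 without KI cortex replicate 2.

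Dlgap3 was called at both ages. At PWK 14 its cortical libraries were at 10437, 10372, 11118 and 12216 in WT and 8864, 8589.7, 9359 and 9102 in KI mice, and its hippocampal libraries at 6650.1, 6959, 6475 and 7961 and 7621, 9434, 10098 and 7596. The KI level was thus lower in every cortical library and higher on average in hippocampus (log2 difference 0.60, SE 0.13, adjusted p = 0.022). At PWK 28 cortex was at 9562, 8928, 8369 and 8767 and 7353, 9076, 7508 and 8062 with overlap, while hippocampus was apart, as given above (log2 difference 0.52, SE 0.091, adjusted p = 0.00359). Lrrtm1 was called at PWK 14 in the other direction, with overlapping cortical libraries at 1269, 1358, 1138 and 1119.6 in WT and 1198, 1072, 1209.8 and 1029.9 in KI mice (log2 difference -0.49, SE 0.12, adjusted p = 0.0432).

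The other genes called at PWK 28 were Synpo (log2 difference 0.78, SE 0.14, adjusted p = 0.00487), Camk2a (log2 difference 0.59, SE 0.14, adjusted p = 0.0222), Homer2 (log2 difference 0.50, SE 0.13, adjusted p = 0.0366), Ppp1r9b (log2 difference 0.41, SE 0.084, adjusted p = 0.0106) and Dlg1 (log2 difference 0.38, SE 0.083, adjusted p = 0.0148). All 5 fell in cortex, and Homer2 alone fell in hippocampus as well. In hippocampus at PWK 28 Synpo was at 5043, 5103, 4985 and 4817 in WT and 4317, 5169, 5368 and 3974 in KI libraries, Ppp1r9b at 24484, 26812, 25909 and 24938 and 23613, 26947, 27289 and 26943, and Dlg1 at 3728, 3444, 3342 and 3470.2 and 3606, 3439.5, 3635 and 4179.6. The genotypes overlapped in each of these 3 cases.

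**Figure D4:**
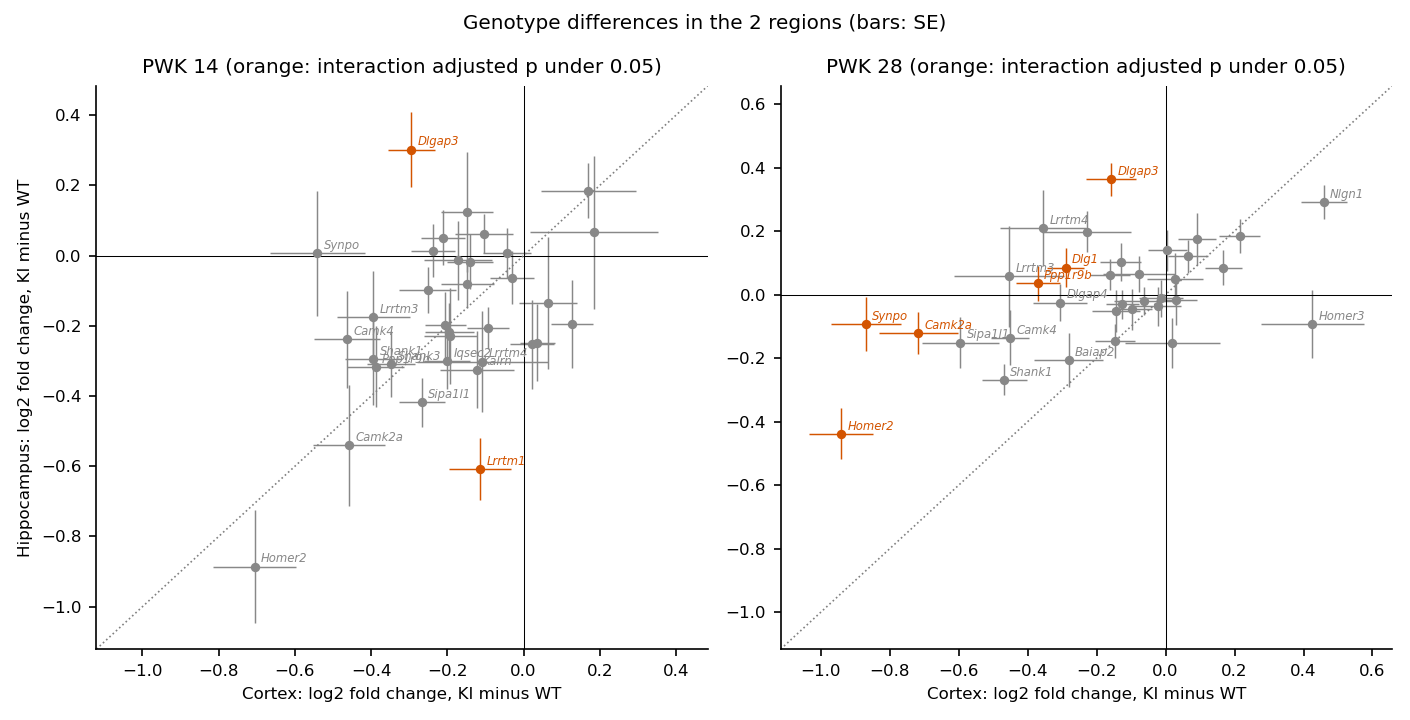
Log2 fold change of KI against WT in cortex (horizontal axis) against hippocampus (vertical axis) for the 34 genes at PWK 14 and PWK 28, with SE bars and a dotted line of equal change. Genes called in the test of interaction are orange: Dlgap3 and Lrrtm1 at PWK 14, and Dlg1, Dlgap3, Homer2, Camk2a, Synpo and Ppp1r9b at PWK 28.

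Whether the difference changed from PWK 14 to PWK 28 was tested in the same way within each region. None of the 34 was called in cortex or hippocampus, and neither was any other gene (0% and 0% of all genes). At an unadjusted p under 0.05 from limma, 6 of the 34 passed in cortex and 11 in hippocampus, beside 2770 and 2274 of all genes. In hippocampus 31 of the 34 interaction values lay above 0, with a median of 0.15 beside -0.002 for all genes. The genes with the smallest p were Iqsec1 in cortex (log2 difference 0.26, SE 0.087, adjusted p = 0.186) and Iqsec2 in hippocampus (log2 difference 0.40, SE 0.10, adjusted p = 0.161), so a change between the late ages was not shown for any gene. Without KI replicate 2 at PWK 28 in cortex 2 genes were called, without KI replicate 1 at PWK 14 in cortex 1, and without KI replicate 4 at PWK 14 in hippocampus 1.

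Ratios of related genes within a library do not move with the scaling of libraries. The ratio of Camk2a to Camk2b in WT cortex rose from 1.17 at PWK 1 to 5.34 at PWK 7, and was 5.30 at PWK 14 and 4.38 at PWK 28. In KI cortex it was 1.16, 4.66, 3.53 and 2.61 at the same ages. On the log2 scale the KI libraries at PWK 28 lay between 1.10 and 1.64 and the WT libraries between 1.97 and 2.33, a difference of -0.75 with no overlap (exact two-sided permutation test, p = 0.0286, adjusted p = 0.131). At PWK 14 the difference was -0.58 in cortex and -0.35 in hippocampus, both without overlap and with the same p.

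**Figure D5:**
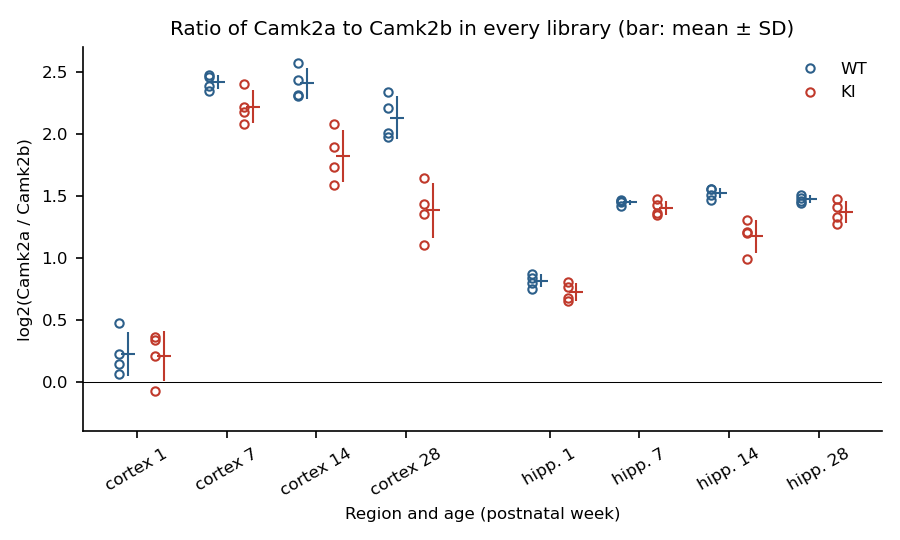
Log2 ratio of Camk2a to Camk2b in every library, by region and age, with WT in blue, KI in red, and mean ± SD. KI libraries lie below all WT libraries in cortex at PWK 14 and 28 and in hippocampus at PWK 14.

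The smallest p that 4 against 4 libraries allow is 0.0286, and after adjustment over 32 tests, 4 ratios in 8 genotype comparisons, none passed. The 7 tests at that smallest p were the 3 of Camk2a to Camk2b given above, and the following 4. The ratio of Dlg4 to Dlg3, which encode PSD-95 and SAP102, was lower in KI hippocampus by -0.20 at PWK 14 and by -0.094 at PWK 28. The ratio of Nlgn1 to Nlgn2, neuroligins of excitatory and of inhibitory synapses, was higher in KI mice by 0.29 in cortex and by 0.21 in hippocampus at PWK 28. For Shank3 to Shank2 the p lay between 0.0857 and 0.743, and the largest difference was -0.16, in cortex at PWK 1.

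Other genes of the same compartments, from lists of related genes, were counted with the same tests. The shares of all genes to read them against, in cortex at PWK 14 and 28 and hippocampus at PWK 14 and 28, were 2.48%, 12.2%, 7.64% and 8.92% higher and 2.70%, 10%, 7.95% and 6.91% lower. Of 16 further genes of the calcium and calmodulin pathway, 0 were called higher and 3, 6, 5 and 6 lower in cortex at PWK 14 and 28 and in hippocampus at PWK 14 and 28. In cortex those that fell most were Camk1g, a CaMKI isoform (-0.63 and -1.10 on the log2 scale), and Camk2n1, an inhibitor of CaMKII (-0.63 and -1.11). In hippocampus they were Camkk2, which activates CaMKI and CaMKIV (-0.95 and -0.63), with Camk2n1 at PWK 14 (-0.67) and Camk1g at PWK 28 (-0.45). The list medians were -0.13, -0.098, -0.23 and -0.080, and the shares called lower were 18.8%, 37.5%, 31.2% and 37.5%.

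Of 26 other postsynaptic density and spine genes, 1, 2, 2 and 1 were called higher and 4, 6, 3 and 8 lower in the same order of comparisons. The shares were 3.85%, 7.69%, 7.69% and 3.85% higher and 15.4%, 23.1%, 11.5% and 30.8% lower, so those called higher were near or below the shares of all genes. Tanc1, a scaffold bound to PSD-95, rose in cortex at both ages (0.84 and 0.95) and in hippocampus at PWK 28 (0.30). In cortex Begain (-0.43) and Git1 (-0.31) fell most at PWK 14, and Rasgrf1, an exchange factor for Ras and Rac (-0.90), and Mpp2 (-0.39) at PWK 28, when Rapgef4 rose (0.31). In hippocampus Mpp2 (-0.60) and Rasgrf1 (-0.58) fell most at PWK 14, when Grip1 (0.37) and Arhgef7 (0.30) rose, and Rasgrf1 (-0.41) and Rasgrf2 (-0.39) at PWK 28.

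Of 25 other adhesion genes, 0, 3, 3 and 4 were called higher and 3, 5, 3 and 1 lower. In hippocampus 12% and 16% were called higher and 12% and 4% lower. Cbln2, a secreted linker between neurexins and postsynaptic receptors, fell most in cortex (-1.06 and -0.81), with Lrfn2 next at PWK 14 (-0.41) and Ephb2 at PWK 28 (-0.68). The receptor phosphatase gene Ptprf rose in cortex at PWK 28 (1.01) and in hippocampus at PWK 14 (1.03) and PWK 28 (0.54). Slitrk4 rose in cortex at PWK 28 (0.51) and the neurexin gene Nrxn2 in hippocampus at both ages (0.40 and 0.33). Lrfn5 fell most in hippocampus at PWK 14 (-0.53) and Ephb2 at PWK 28 (-0.28).

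Of 5 measured genes of the inhibitory postsynapse, 0, 4, 2 and 2 were called higher and 0 lower in the 4 late comparisons, with medians of 0.19, 0.32, 0.11 and 0.048. Insyn1, a protein of inhibitory synapses, rose in cortex at PWK 28 (0.67) and in hippocampus at PWK 14 (0.47) and PWK 28 (0.58). Iqsec3, an exchange factor of inhibitory synapses, rose in the same comparisons (0.46, 0.40 and 0.19).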

How the data were processed

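Bulk RNA-seq of 64 libraries was analysed. The deposited values are a signal that the authors made per gene: transcripts were quantified with Salmon (0.11.2, per the submitters' processing notes) on GRCm38, summed to genes as estimated counts and divided by DESeq2 (1.19.11) size factors over all 64 libraries. They are not raw counts, so no count model was fitted here.

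Values were transformed to log2(value + 1), genes with a mean under 1 in the fitted libraries were left out, and limma 3.58.1 (R 4.3.3) with an intensity trend was fitted to the libraries compared. Fold changes are on that scale, which understates changes of low genes. P-values were adjusted by Benjamini-Hochberg over all genes tested, and genes were called at an adjusted p under 0.05. Ratios of paralogues were compared by exact two-sided permutation tests. A gene counts as separated where the lowest library of one group exceeds the highest of the other.

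The genes and the related and marker lists were chosen with earlier results of these data known. Genes are named where they were called. Values in every library are given for the 3 genes per direction that changed most in each late genotype comparison, for genes called alike in at least 3 of these 4, for genes called in an interaction, and for Shank3, Dlg4, Camk2a and Nrgn in any case. In WT comparisons the 3 largest differences per direction are given, and from each related list up to 2 genes per direction. One gene that this rule names is not reported here. Where none was called, the gene with the smallest p is named. Alternatives were a pseudocount of 10, no filter, total-sum scaling, centring on pan-neuronal genes, a correction for GC content and length, sample quality weights, a replicate block, 1 fit of all 64 libraries, and leaving out each library in turn. One inhibitory postsynapse gene of the list was not analysed here.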

Additional observations from a re-analysis of the deposited data

Results flagged for a closer look

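In groups of 4 libraries, a library was singled out when its distance to the nearest of the others exceeded Dixon's critical share of the range of the group, which chance gives for about 1 in 20 groups. Among the 92 groups whose libraries are reported this held for 2. Iqsec1 in WT hippocampus at PWK 28 was low in replicate 1, at 6122 normalized counts. Ppp1r9b in KI hippocampus at PWK 28 was low in replicate 1, at 23613 normalized counts. Over all groups of the 34 genes it held for 35 of 544, or 6.43%.

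For 7 genes the genotype difference itself differed between the regions in the test of interaction, given here as the log2 fold change in hippocampus minus that in cortex. At PWK 14 it was 0.60 for Dlgap3 and -0.49 for Lrrtm1. At PWK 28 it was 0.38 for Dlg1, 0.52 for Dlgap3, 0.50 for Homer2, 0.59 for Camk2a, 0.78 for Synpo and 0.41 for Ppp1r9b. The call of Lrrtm1 was kept in 4 and that of Homer2 in 5 of the 16 fits that leave out a library.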

How the results depend on the processing

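Of the 32 calls among the 34 genes in the genotype comparisons, 19 were kept under all 8 alternatives and in every fit without 1 library. At PWK 1 and 7 the genotype count was 0 under every alternative. Centring on pan-neuronal genes gave 19 and 26 calls in cortex at the late ages, 10 and 14 in hippocampus, 9 for PWK 28 against 7 in WT hippocampus and 10 for genotype by region at PWK 28. Sample quality weights gave 17 for cortex at PWK 28, 8 for hippocampus at PWK 14 and 1 for genotype by age in cortex. Total-sum scaling gave 10 in hippocampus at PWK 14. The fit of all 64 libraries gave 18 for cortex at PWK 28, 17 for hippocampus at PWK 14, 10 for PWK 28 against 7 in WT cortex, 4 and 10 for genotype by region at PWK 14 and 28, and 1 and 3 for genotype by age in cortex and hippocampus. The cause of these shifts was not tested. The shares of all genes called under the alternatives or without 1 library are not given here. The counts therefore cannot be read as a result about the 34 genes.

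The numbers are not said to mark a mouse or batch, and same-number libraries correlated over 0.1 in 10 of 32 pairs between genotypes and 17 of 32 between regions, short of every pair, so no pairing was used. Between regions 38 of 64 libraries correlated best with their own number, a hint of shared mice that the region and interaction fits do not use, and between genotypes 16 of 64. With a replicate block the count was 7 for cortex and 3 for hippocampus at PWK 14, and 1 for genotype by region at PWK 14, and it stayed within 1.5 times the count without it elsewhere.

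Without 1 library the counts ranged from 3 to 12 (PWK 14) and 10 to 18 (PWK 28) for KI against WT cortex, 3 to 7 and 4 to 8 for hippocampus, 12 to 21 for PWK 28 against 7 in WT hippocampus, 0 to 2 and 4 to 10 for genotype by region at PWK 14 and 28, and 0 to 2 and 0 to 1 for genotype by age in cortex and hippocampus.

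All 28 reversed values arose from centring on pan-neuronal genes. Iqsec1 in cortex at PWK 28 became -0.008. From PWK 1 to 7 in WT cortex Dlg3 became 0.097, Homer2 0.091 and Lrrtm4 0.013, and in hippocampus Nlgn1 0.085, Nlgn2 0.021 and Lrrtm2 0.083. For hippocampus against cortex at PWK 1 Dlg3 became 0.14, Camk2b 0.18 and Iqsec2 0.14. At PWK 7 Dlg2 became 0.065, Dlg4 0.12, Dlgap4 0.14, Shank1 0.094, Shank2 0.17, Nlgn2 0.18, Lrrtm2 0.051, Iqsec1 0.085 and Sipa1l1 0.022. At PWK 14 Dlg2 became 0.14, Dlgap4 0.13, Shank2 0.12 and Iqsec1 0.003. At PWK 28 Dlg4 became 0.15, Shank1 0.08, Shank2 0.049, Baiap2 0.033 and Iqsec2 0.18.

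With 4 mice a group and whole tissue, small differences and the cell types behind them could not be resolved.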
